A study of Mus musculus with 6 samples.

Results

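Transcripts of 10 genes of regulatory T cells and of immune checkpoints were examined in spleens of NOD.B10 females, the mouse strain used as a model of primary Sjögren's syndrome, and of BL/10 (C57BL/10) females as healthy controls. The genes are Foxp3, Ikzf2, Il2ra, Icos, Tigit, Lag3, Tnfrsf18, Tnfrsf4, Pdcd1 and Havcr2. They were taken by symbol from the 47729 genes of the deposited count table, and all 10 were found there and passed the filter on low counts. Whole spleen RNA of 3 mice of each strain was sequenced, without treatment and without sorting of cells. NOD.B10 (full name NOD.B10Sn-H2b/J) carries the H2b haplotype on a NOD background, and the controls are labelled C57BL10/SnJ.

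The labels did not settle the strain of the libraries. For all 6 libraries the description and the name of the count column give one strain, and the title and strain field give the other. The column names were followed here, so every direction below would be reversed under the titles. Ifi202b, an interferon-inducible gene known to be barely expressed in C57BL/6 mice, relatives of BL/10, was read 838, 624 and 485 times in the libraries with NOD.B10 column names and 2, 0 and 0 times in those with BL/10 column names. This gene was looked at after its values were seen and was not used to assign libraries. The ages are also in dispute. The protocol gives 26 weeks for all mice, but the labels give 36 weeks for BL/10 replicates 2 and 3 (as named by their columns), and 26 weeks for BL/10 replicate 1 and the 3 NOD.B10 mice. The protocol calls the 3 libraries of a strain biological replicates. The p-values set the difference between the strains against the spread among libraries of the same strain.

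Regulatory T cells are CD4 T cells that restrain other lymphocytes. The transcription factor Foxp3 fixes their identity, Ikzf2 encodes its partner Helios, and Il2ra encodes CD25, the chain that gives the interleukin-2 receptor its high affinity. Icos, Tnfrsf18 (GITR) and Tnfrsf4 (OX40) encode co-stimulatory receptors that regulatory T cells carry and that other T cells gain on activation. Tigit, Lag3, Pdcd1 (PD-1) and Havcr2 (TIM-3) encode inhibitory receptors, the checkpoints, which antigen-experienced T cells use to limit their own response. Pdcd1 and Icos are also typical of follicular helper T cells, Lag3 and Tigit are found on NK cells, and Havcr2 is expressed by dendritic cells and macrophages. In RNA of a whole spleen, fewer cells of a type and less RNA per cell cannot be told apart.

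All 10 genes had a higher mean in NOD.B10 spleens. For 6 of them the rise passed an adjusted p of 0.05 in edgeR's quasi-likelihood test (Foxp3, Tnfrsf18, Icos, Ikzf2, Havcr2 and Tnfrsf4), and none fell. Among the 15330 genes tested, 9.11% were called higher in NOD.B10, 8.22% lower and 17.3% in either direction. DESeq2 called 7 of the 10 genes higher, against 8.43% of the genes it tested. The median log2 fold change of the 10 genes was 0.77, against 0.00 (rounded from 0.0006) for all tested genes. In 9 of the 10 genes, every NOD.B10 library lay above every BL/10 library, which was the case for 20.5% of all tested genes (17.5% lay below without overlap, 38% in all).

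The libraries held between 15662712 and 18298451 counted reads, and 3 reads, the floor of detection, stood for 0.163 to 0.201 CPM (the usual count scaled to library size, after TMM normalization). This floor covers counting error only. The defining markers of T cells, B cells, NK cells, macrophages, dendritic cells, neutrophils and red cell precursors were found, and none of these markers was at the floor in every library. The labelled tissue was also checked for another organ. The summed level of 12 pancreas acinar genes was 10910 CPM in BL/10 replicate 1, 1697 CPM in replicate 2 and 36.1 CPM in replicate 3. It was 2.81 to 4.21 CPM in the NOD.B10 libraries. The 10 of these genes that were tested passed the filter through their BL/10 reads, so their calls as lower in NOD.B10 add nothing to these sums. For this reason the results that rest on the BL/10 libraries are also given without replicate 1, and with replicate 3 as the sole BL/10 library. Both settings set NOD.B10 mice labelled 26 weeks against BL/10 mice labelled 36 weeks, so that strain and labelled age cannot be told apart in them, and in the second the lone BL/10 library is assumed to vary like the NOD.B10 libraries.

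**Figure D1:**
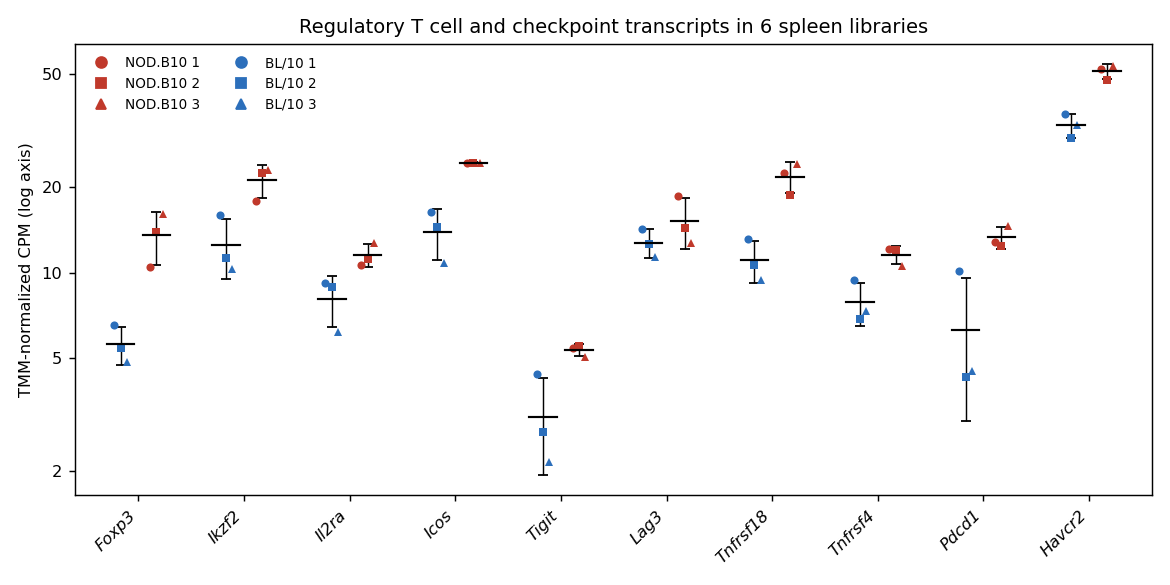
TMM-normalized CPM (log axis) of the 10 genes in the 3 NOD.B10 (red) and 3 BL/10 (blue) libraries. Symbols mark the replicates, bars the mean and whiskers the SD. NOD.B10 lies above BL/10 without overlap in 9 genes, all but Lag3, and BL/10 replicate 1 is the highest BL/10 library in all 10.

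The genes that mark regulatory T cells were considered first. Foxp3 (ENSMUSG00000039521) lies on the plus strand of chromosome X from 7579676 to 7595243 of GRCm38. It was read at 10.5, 13.9 and 16.1 CPM in NOD.B10 replicates 1, 2 and 3, and at 6.52, 5.43 and 4.83 CPM in the BL/10 replicates. The lowest NOD.B10 library was thus above the highest BL/10 library. The log2 fold change of 1.27 (SE, the standard error, of 0.20 and adjusted p = 0.00488 in edgeR's quasi-likelihood test) was the largest of the 10 genes and corresponds to 2.41-fold. With each library left out in turn it stayed between 1.13 and 1.43 and past the threshold in all 6 fits. Exons of Gm36995, Flicr and Ccdc22 cover 21.5% of the exon length of Foxp3, and reads in those stretches were not counted for any gene.

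Ikzf2 (ENSMUSG00000025997), on the minus strand of chromosome 1 from 69531214 to 69687245, had 17.9, 22.5 and 22.9 CPM in NOD.B10 and 15.9, 11.3 and 10.3 CPM in BL/10. The strains did not overlap, but BL/10 replicate 1 came close to NOD.B10 replicate 1. Its log2 fold change was 0.76 (SE 0.18, adjusted p = 0.0298 in edgeR). The call was lost in 4 of the 6 fits without a library, with adjusted p between 0.0755 and 0.104 when NOD.B10 replicate 2 or 3 or BL/10 replicate 2 or 3 was left out, and also with the replicate number as a block (adjusted p = 0.0538).

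Il2ra (ENSMUSG00000026770), on the plus strand of chromosome 2 from 11642807 to 11693193, had 10.7, 11.2 and 12.7 CPM in NOD.B10 and 9.18, 8.92 and 6.19 CPM in BL/10. The libraries of the strains did not overlap, and the difference did not pass the threshold (a log2 fold change of 0.51 with SE 0.17 and adjusted p = 0.0832 in edgeR). Il2ra was not called in any of the 6 fits without a library.

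The co-stimulatory receptors followed. Tnfrsf18 (ENSMUSG00000041954), on the plus strand of chromosome 4 from 156026164 to 156028895, had 22.5, 18.7 and 24.1 CPM in NOD.B10 and 13.1, 10.7 and 9.43 CPM in BL/10. Its log2 fold change of 0.97 (SE 0.16, adjusted p = 0.00573 in edgeR) passed the threshold in all 6 fits without a library. Of its exon length, 27.2% is shared with the antisense gene Gm16008, and strand was not used in the counting, so reads there were left out. Tnfrsf4 (ENSMUSG00000029075) lies 9551 bases upstream, on the same strand from 156013843 to 156016612. It had 12.1, 12.0 and 10.6 CPM in NOD.B10 and 9.40, 6.84 and 7.33 CPM in BL/10, which did not overlap. Its log2 fold change of 0.55 (SE 0.15) was close to the threshold (adjusted p = 0.0452 in edgeR) and was called in 1 of the 6 fits without a library.

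Icos (ENSMUSG00000026009), on the plus strand of chromosome 1 from 60977927 to 61000320, varied least among the NOD.B10 mice, with 24.4, 24.4 and 24.2 CPM. In BL/10 it had 16.4, 14.4 and 10.8 CPM. Every NOD.B10 library lay above every BL/10 library. The log2 fold change was 0.81 (SE 0.15, adjusted p = 0.0113 in edgeR) and was past the threshold in all 6 fits without a library. Ctla4, the inhibitory receptor gene 62094 bases upstream of Icos, had 10.3, 10.9 and 9.83 CPM in NOD.B10 and 9.07, 5.16 and 3.24 CPM in BL/10 (log2 fold change 0.82, SE 0.32, adjusted p = 0.117 in edgeR). Its estimate was close to that of Icos, but the BL/10 mice spread more widely. Cd28, further upstream on the same chromosome, had 45.2, 42.9 and 62.8 CPM in NOD.B10 and 23.1, 19.4 and 18.0 CPM in BL/10, and rose by a log2 fold change of 1.32 (SE 0.17, adjusted p = 0.00223 in edgeR).

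Of the inhibitory receptors, Havcr2 was the one gene whose rise passed the threshold. Havcr2 (ENSMUSG00000020399), on the plus strand of chromosome 11 from 46454935 to 46481255, had 52.0, 47.8 and 53.5 CPM in NOD.B10 and 36.1, 29.8 and 33.2 CPM in BL/10. The gap between the strains was larger than the spread within either. The log2 fold change of 0.63 (SE 0.10, adjusted p = 0.00542 in edgeR) lay between 0.56 and 0.69 with each library left out and was called in all 6 of these fits.

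Pdcd1 (ENSMUSG00000026285), on the minus strand of chromosome 1 from 94038305 to 94052553, had 12.9, 12.4 and 14.6 CPM in NOD.B10. In BL/10 the replicates stood apart, with 10.1 CPM in replicate 1 and 4.29 and 4.49 CPM in replicates 2 and 3. The strains did not overlap, and the log2 fold change of 1.07 (SE 0.31) missed the threshold narrowly (adjusted p = 0.0537 in edgeR). Without BL/10 replicate 1, the log2 fold change was 1.59 (adjusted p = 0.00074 in edgeR). With all libraries, DESeq2 called the gene (adjusted p = 0.00872), as did limma-voom (adjusted p = 0.0332) and edgeR with the replicate number as a block (adjusted p = 0.0428).

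Tigit (ENSMUSG00000071552), on the minus strand of chromosome 16 from 43648861 to 43664184, was the gene with the fewest reads of the 10, from 38 to 91 per library. It had 5.44, 5.53 and 5.06 CPM in NOD.B10 and 4.40, 2.75 and 2.16 CPM in BL/10 (log2 fold change 0.78, SE 0.26, adjusted p = 0.0795 in edgeR). As for Pdcd1, BL/10 replicate 1 was nearest to the NOD.B10 level, and without it the log2 fold change was 1.12 (adjusted p = 0.00813 in edgeR). Lag3 (ENSMUSG00000030124), on the minus strand of chromosome 6 from 124904361 to 124911705, had 18.6, 14.3 and 12.7 CPM in NOD.B10 and 14.3, 12.6 and 11.3 CPM in BL/10. It was the one gene of the 10 whose libraries overlapped. Its log2 fold change of 0.25 (SE 0.17, adjusted p = 0.317 in edgeR) did not pass the threshold. Nor did it under any other setting with TMM or another library-wide scaling. Cd4, its neighbor 16139 bases away with no listed gene between, had 198, 192 and 232 CPM in NOD.B10 and 132, 86.1 and 101 CPM in BL/10. Unlike Lag3, Cd4 was called higher (log2 fold change 0.96, SE 0.17, adjusted p = 0.00805 in edgeR). With libraries scaled to Cd4 counts, Lag3 was called lower (log2 fold change -0.71, adjusted p = 0.0137 in edgeR), as were 83.8% of all tested genes. The median of all tested genes on that scale was -0.99.

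The stretches just upstream of 3 genes are shown because they rose (Foxp3 and Havcr2) or varied most among the BL/10 mice (Pdcd1). Each is the 250 bases before a RefSeq transcript start on GRCm38.p6, 5′ to 3′ on the gene's own strand, and 7 of the 10 genes matched a RefSeq entry (all but Ikzf2, Icos and Lag3). Capitals mark 4 motifs searched on both strands, the NFAT core GGAAA (or TTTCC), AP-1 TGANTCA, RUNX TGTGGT (or ACCACA) and the TATA box TATAAA (or TTTATA). The windows are chrX:7579426-7579675 on the plus strand for Foxp3, chr1:94052554-94052803 on the minus strand for Pdcd1 and chr11:46454681-46454930 on the plus strand for Havcr2.
Foxp3: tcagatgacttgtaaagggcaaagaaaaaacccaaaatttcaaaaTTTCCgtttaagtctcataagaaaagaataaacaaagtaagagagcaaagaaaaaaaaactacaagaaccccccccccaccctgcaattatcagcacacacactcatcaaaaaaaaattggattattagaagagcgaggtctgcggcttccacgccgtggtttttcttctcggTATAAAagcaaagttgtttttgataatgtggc
Pdcd1: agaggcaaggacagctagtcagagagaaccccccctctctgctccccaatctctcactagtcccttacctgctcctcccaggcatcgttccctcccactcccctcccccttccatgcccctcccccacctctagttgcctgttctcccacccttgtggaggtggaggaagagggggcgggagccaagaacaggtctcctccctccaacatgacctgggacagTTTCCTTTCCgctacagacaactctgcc
Havcr2: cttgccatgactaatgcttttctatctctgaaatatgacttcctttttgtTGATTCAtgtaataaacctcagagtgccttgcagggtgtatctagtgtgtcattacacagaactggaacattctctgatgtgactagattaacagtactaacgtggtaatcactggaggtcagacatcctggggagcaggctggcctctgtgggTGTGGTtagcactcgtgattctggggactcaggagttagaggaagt
RefSeq has 2 starts for Foxp3, and the window shown is that of the start further upstream. It holds a TATA box that begins 32 bases before the start and 1 NFAT core, while the window of the other start, chrX:7580233-7580482, holds 1 NFAT core and none of the other motifs. The Pdcd1 window holds 2 NFAT cores that begin 28 and 23 bases before the start and is rich in G and C (60.4%, against a median of 52.4% over all promoters). The Havcr2 window holds 1 AP-1 and 1 RUNX motif and no NFAT core. The NFAT core was found in 55.6% of all 32851 promoter windows of this length, the RUNX motif in 14.0%, the TATA box in 12.4% and AP-1 in 6.75%, so that a match describes the letters of a window and not a binding site. Of the 7 genes with an entry, 6 held the NFAT core in at least 1 window.

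To compare levels between genes, reads were also divided by exon length (RPKM, reads per kilobase of exon, scaled to library size). This length includes stretches shared with other genes, where reads were not counted (27.2% for Tnfrsf18, 21.5% for Foxp3 and 1.24% for Ikzf2). The RPKM of these genes is therefore understated, and their places in the order could be higher, also against Havcr2 and Il2ra. In NOD.B10, the order ran from Havcr2 (18.8 ± 1.09 RPKM, SD, n = 3) and Tnfrsf18 (14.3 ± 1.79) through Tnfrsf4 (8.45 ± 0.621), Lag3 (7.21 ± 1.45), Icos (7.09 ± 0.0295) and Pdcd1 (6.89 ± 0.603) to Tigit (5.55 ± 0.260), Foxp3 (3.39 ± 0.716), Il2ra (2.02 ± 0.187) and Ikzf2 (1.82 ± 0.237). Of the 9 pairs of neighbors in this order, 4 overlapped in their libraries, namely Tnfrsf4 with Lag3, Lag3 with Icos, Icos with Pdcd1, and Il2ra with Ikzf2. In BL/10, Havcr2 was also first (12.1 ± 1.16 RPKM, SD, n = 3) and Ikzf2 last (1.08 ± 0.259 RPKM), and 6 of the 9 neighboring pairs overlapped. Foxp3 stood at 1.40 ± 0.214 RPKM (SD, n = 3) in BL/10, beside Il2ra at 1.42 ± 0.290 RPKM.

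The BL/10 libraries differed among themselves in a shared way. Replicate 1 was the highest BL/10 library for all 10 genes, which was the case for 36.2% of all tested genes. This library is also the one with the most pancreas transcripts, the highest summed T cell marker level of the BL/10 libraries (762 CPM, against 631 and 572 CPM) and the single BL/10 library labelled 26 weeks. Its summed B cell markers were the highest of the BL/10 libraries (4704 CPM, against 2678 and 2868), and its neutrophil markers (5976 CPM, against 12350 and 10900) and red cell precursor markers (4465 CPM, against 10150 and 10310) were the lowest. The transcript of the follicular helper cytokine Il21, looked at after its values were seen, was likewise read 50 times in BL/10 replicate 1, against 4 and 2 times in replicates 2 and 3 and 26 to 39 times in NOD.B10. The part of pancreas tissue, of these other cells and of age in these values was not tested.

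With the labelled age as a term in the edgeR fit, the strain difference rests on BL/10 replicate 1 alone. All 10 log2 fold changes then stayed positive, from 0.09 for Lag3 to 1.05 for Foxp3, with a median of 0.40, but none of the 10 genes passed an adjusted p of 0.05. Foxp3 had an adjusted p of 0.073, Havcr2 of 0.0721 and Tnfrsf18 of 0.0739 in this edgeR fit. The same fit called 433 genes higher over the whole table (2.82%), against 1396 without the age term. When the fit was limited to the libraries labelled 26 weeks, again 0 of the 10 genes were called in edgeR, against 2.83% of all tested genes, although all 3 NOD.B10 libraries lay above BL/10 replicate 1 for 9 of the 10 genes (33.3% of all tested genes). Without BL/10 replicate 1, 8 of the 10 genes were called higher in edgeR, against 12.3% of all tested genes. With BL/10 replicate 3 as the sole BL/10 library, 8 of the 10 were also called, against 5.47% of all tested genes, and the largest log2 fold changes were those of Pdcd1 (1.55) and Foxp3 (1.47).

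**Figure D2:**
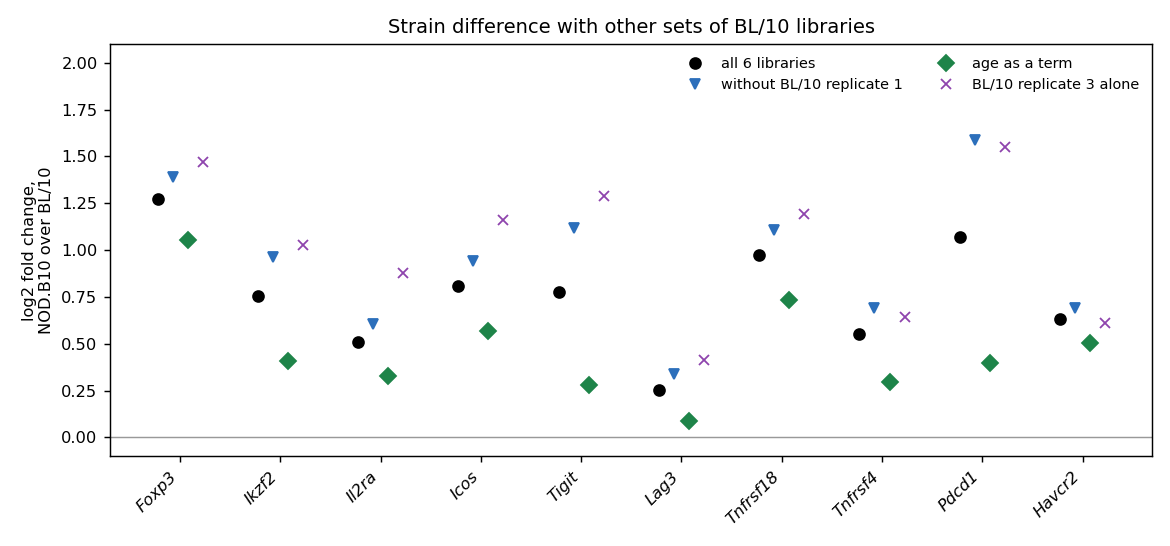
Log2 fold change of each gene, NOD.B10 over BL/10, with all 6 libraries (black circles), without BL/10 replicate 1 (blue triangles), with age as a term (green diamonds) and with BL/10 replicate 3 as the sole BL/10 library (purple crosses). Every value is above 0, and the values with the age term, from 0.09 to 1.05, are the lowest of the 4 for all 10 genes.

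The 10 genes were then set against T cell transcripts, because T cell genes themselves differ between these strains. The CD3 chains, which carry the signal of the T cell receptor, were higher in NOD.B10, with log2 fold changes of 1.13 for Cd3d, 1.42 for Cd3e and 1.32 for Cd3g (adjusted p = 0.00168, 0.000414 and 0.00231 in edgeR). Their geometric mean was 71.6, 67.3 and 86.5 CPM in NOD.B10 and 35.2, 30.9 and 26.2 CPM in BL/10. The summed level of 14 T cell markers ranged from 1107 to 1455 CPM in NOD.B10 and from 572 to 762 CPM in BL/10. Of the 14, 11 were called higher, against 9.11% of all tested genes. The 3 not called, named after their values were seen, were Cd2 and the CD8 T cell markers Cd8a and Cd8b1. Cd8a had 53.2, 50.1 and 73.1 CPM in NOD.B10 and 46.3, 61.4 and 49.9 CPM in BL/10 (log2 fold change 0.16, adjusted p = 0.528 in edgeR). Cd8b1 had 24.64, 27.15 and 40.79 CPM in NOD.B10 and 38.99, 46.94 and 36.48 CPM in BL/10 (log2 fold change -0.40, adjusted p = 0.19 in edgeR). For Cd2 the log2 fold change was 0.12 (adjusted p = 0.715 in edgeR).

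When libraries were scaled to the geometric mean of the Cd3d, Cd3e and Cd3g counts, the median of all tested genes moved to a log2 fold change of -1.29, and 91.7% of all genes were called lower in NOD.B10 in edgeR. Of the 10 genes, 6 were called lower on this scale (Lag3, Il2ra, Tnfrsf4, Havcr2, Ikzf2 and Icos), 0 were called higher (1.66% of all genes), and their median was -0.49. Both the share of 6 in 10 and the size of the median were under those of all tested genes.

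Foxp3 differed least on this scale. It was read 14.6, 20.7 and 18.6 times per 100 Cd3 reads in NOD.B10 and 18.5, 17.6 and 18.5 times in BL/10, with means of 18.0 ± 3.10 and 18.2 ± 0.513 (SD, n = 3). The log2 fold change on this scale was -0.02 with a standard error of 0.22 (adjusted p = 0.937 in edgeR). A p above the threshold does not show that the ratios are equal. Without NOD.B10 replicate 1 the value was 0.11. Scaled to the summed T cell markers or to Cd4, it was 0.34 or 0.29, but these references move all genes by about the same amount, with a median of all genes of -0.94 and -0.99 in place of -1.29, so that the sign of a value near 0 follows the reference.

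Pdcd1 and Tnfrsf18 had the next smallest differences. Pdcd1 had 18.0, 18.4 and 16.9 reads per 100 Cd3 reads in NOD.B10 and 28.7, 13.9 and 17.2 in BL/10, so that BL/10 replicate 1 lay above and BL/10 replicate 2 below all NOD.B10 libraries (log2 fold change -0.18, SE 0.26, adjusted p = 0.505 in edgeR). The value depended on the BL/10 libraries used. It was 0.19 without BL/10 replicate 1 and 0.05 with BL/10 replicate 3 alone, neither past the threshold, and -0.69 (adjusted p = 0.0179 in edgeR) with the libraries labelled 26 weeks, where BL/10 replicate 1 is the lone control and is assumed to vary like the NOD.B10 libraries. The other references moved it with all genes, to 0.18 and 0.16. Tnfrsf18 had 31.4, 27.8 and 27.8 in NOD.B10 and 37.2, 34.6 and 36.1 in BL/10, lower in every NOD.B10 library but not past the threshold (log2 fold change -0.31, SE 0.19, adjusted p = 0.126 in edgeR).

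Lag3 had the lowest value of the 10 genes on this scale, still above the median of all tested genes. It was read 26.0, 21.2 and 14.7 times per 100 Cd3 reads in NOD.B10 and 40.6, 40.9 and 43.2 times in BL/10. The 3 BL/10 libraries lay close together and well above the NOD.B10 libraries. The log2 fold change of -1.01 (SE 0.22, adjusted p = 0.000537 in edgeR) was past the threshold under every other reference and set of libraries tried, from -1.21 to -0.66. Il2ra had 14.9, 16.6 and 14.7 reads per 100 Cd3 reads in NOD.B10 and 26.1, 28.9 and 23.7 in BL/10 (log2 fold change -0.77, SE 0.21, adjusted p = 0.00235 in edgeR). Havcr2 had 72.6, 71.0 and 61.8 in NOD.B10 and 102, 96.5 and 127 in BL/10 (log2 fold change -0.67, SE 0.19, adjusted p = 0.00366 in edgeR). For 8 of the 10 genes, all but Foxp3 and Pdcd1, every NOD.B10 ratio was under every BL/10 ratio, a share close to the 90.9% of all tested genes. An exact two-sided permutation test over the libraries gave p = 0.1 for each of these 8, adjusted over the 10 genes to 0.125, and 0.1 is the smallest value that 3 libraries against 3 allow.

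**Figure D3:**
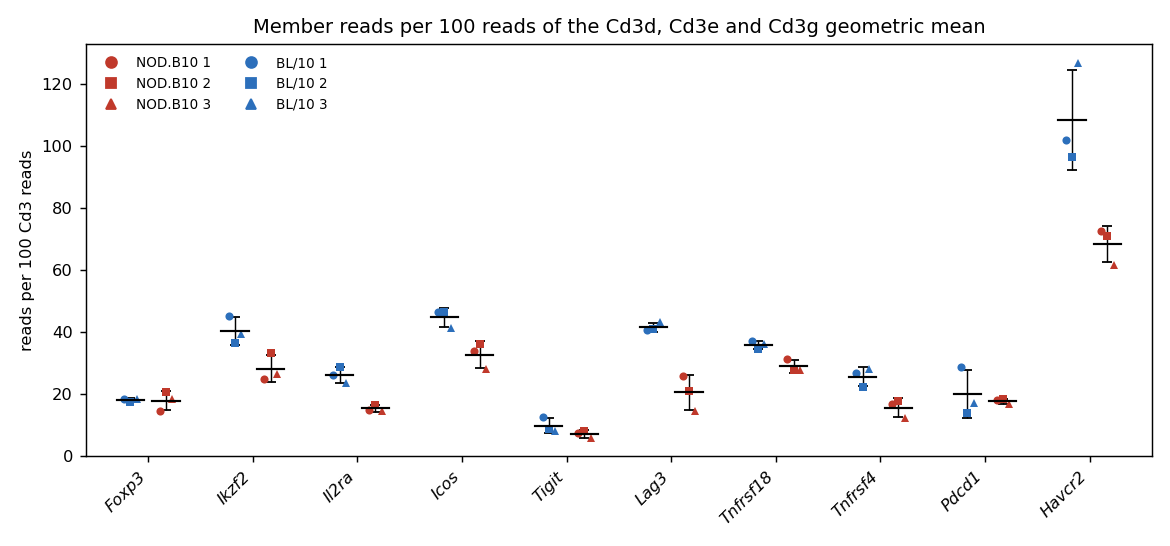
Reads of each gene per 100 reads of the geometric mean of Cd3d, Cd3e and Cd3g (linear axis from 0), by library, with NOD.B10 in red and BL/10 in blue, the mean as a bar and the SD as whiskers. The strains overlap for Foxp3 and Pdcd1, and NOD.B10 lies under BL/10 for the other 8 genes.

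The number of calls changed with the reference. Scaled to Cd4, which rose less than the CD3 chains, or to the summed T cell markers, which include Cd8a and Cd8b1, 1 of the 10 genes was called lower in edgeR, Lag3, against 83.8% and 83.6% of all tested genes. The reads of Foxp3 per 100 Cd4 reads were 5.30, 7.25 and 6.96 in NOD.B10 and 4.93, 6.31 and 4.79 in BL/10, and the strains overlapped.

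**Figure D4:**
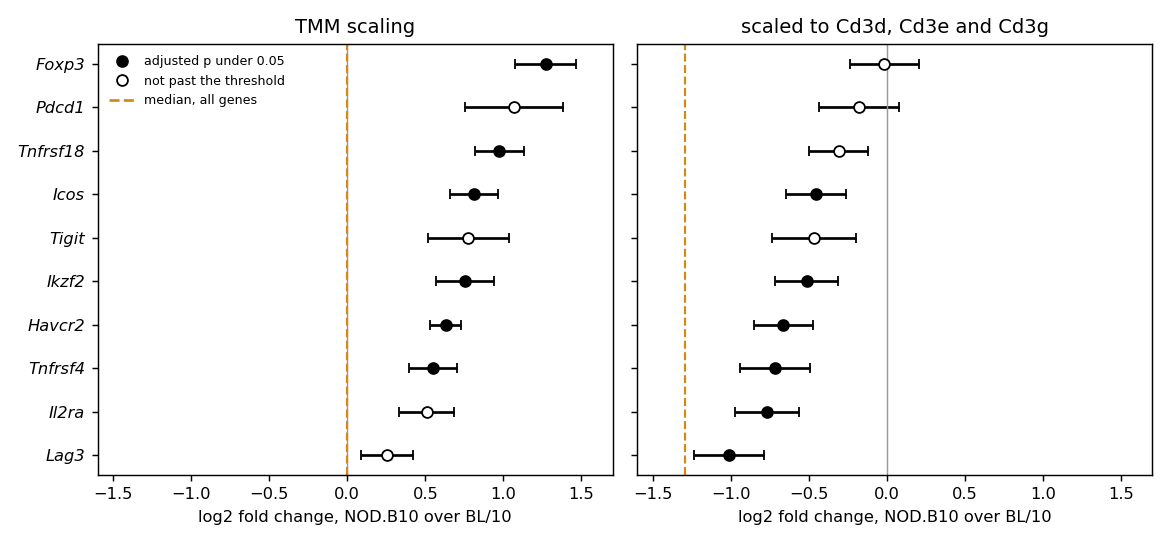
Log2 fold change, NOD.B10 over BL/10, with its standard error, of the 10 genes with TMM scaling (left) and scaled to Cd3d, Cd3e and Cd3g (right). Filled circles passed an adjusted p of 0.05 in edgeR, and dashed lines mark the median of all tested genes. All 10 genes lie above that median in both panels, and 6 are filled in each, but not the same 6.

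Genes of the same pathways were described from lists written out by role. Of 23 tested genes of the regulatory T cell program, 6 rose and 3 fell in edgeR, against 9.11% and 8.22% of all tested genes, and the median log2 fold change of the list was -0.07. Gpr83, a receptor gene enriched in regulatory T cells, had 2.81, 3.81 and 4.27 CPM in NOD.B10 and 1.68, 0.939 and 1.14 CPM in BL/10 (log2 fold change 1.52, adjusted p = 0.0103 in edgeR). Izumo1r, which encodes folate receptor 4, had 21.8, 22.2 and 29.2 CPM in NOD.B10 and 16.8, 6.24 and 8.07 CPM in BL/10 (log2 fold change 1.22, adjusted p = 0.0443). As for Pdcd1, BL/10 replicate 1 stood above the other BL/10 libraries. Ikzf4, which encodes the Helios relative Eos, rose by a log2 fold change of 0.91 (adjusted p = 0.0424 in edgeR). Lrrc32, which encodes GARP, a docking protein for latent TGF-beta that platelets also carry, fell by 0.93 on the log2 scale (adjusted p = 0.0141 in edgeR). Capg, an actin-capping protein gene that macrophages also express, fell by 1.45 on the log2 scale (adjusted p = 0.000876 in edgeR). Areg was at or under the floor in all libraries and was not tested.

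The receptors related to the 10 genes moved unevenly. Of 10 other inhibitory receptor genes, 2 rose and 2 fell in edgeR, with a median log2 fold change of 0.09. For this and the next counts, the shares of all tested genes were 9.11% higher and 8.22% lower. Cd96 (log2 fold change 0.78, adjusted p = 0.0418) and Cd244a (0.53, adjusted p = 0.037), receptors of T and NK cells, were higher in edgeR. Klrc1, which encodes the NK receptor NKG2A, fell by 1.65 (adjusted p = 0.00179) and Cd160 fell by 0.68 on the log2 scale (adjusted p = 0.0268). The summed level of 6 NK cell markers was 99.8 to 150 CPM in NOD.B10 and 113 to 159 CPM in BL/10 and overlapped, with 1 of the 6 called higher and 1 lower. Of 9 other co-stimulatory receptor genes, 5 rose and 0 fell, with a median of 1.08. These were Havcr1, the gene of TIM-1 (log2 fold change 2.00, adjusted p = 0.000254), Cd40lg (1.95, adjusted p = 0.00358), Cd27 (1.33, adjusted p = 0.00222), Cd28 and Tnfrsf25 (1.08, adjusted p = 0.0049). Havcr1, a relative of Havcr2 that B cells also express, had 16.3, 13.5 and 17.9 CPM in NOD.B10 and 4.40, 4.02 and 3.52 CPM in BL/10, a gap far larger than the spread within each strain.

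The ligands did not move with their receptors as a group. Of 15 tested ligand genes, 2 rose and 3 fell in edgeR, against 9.11% and 8.22% of all tested genes. Their median log2 fold change was -0.03. The TIM-3 ligand genes Lgals9 and Ceacam1 fell, while Hmgb1, also listed for TIM-3, was not called (log2 fold change -0.28, adjusted p = 0.201 in edgeR). Lgals9 (galectin-9) had 98.9, 87.8 and 96.7 CPM in NOD.B10 and 140, 180 and 153 CPM in BL/10 (log2 fold change -0.74, adjusted p = 0.0049), and Ceacam1 had 6.28, 8.91 and 10.2 CPM against 31.1, 36.6 and 33.7 CPM (log2 fold change -1.99, adjusted p = 0.000418). Neither gene's libraries overlapped between the strains. Ceacam1 is also a granulocyte gene, and the summed level of 8 neutrophil markers was 2059 to 2407 CPM in NOD.B10 and 5976 to 12350 CPM in BL/10 (7 of 8 called lower), whose part in the fall was not tested.

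For PD-1, Cd274 (PD-L1) had 64.8, 52.3 and 60.9 CPM in NOD.B10 and 47.7, 42.6 and 47.4 CPM in BL/10, and rose by a log2 fold change of 0.37 (adjusted p = 0.0482 in edgeR). Pdcd1lg2 (PD-L2) had a log2 fold change of -0.09 (adjusted p = 0.765). For LAG-3, Lgals3 (galectin-3) fell by 0.84 on the log2 scale (adjusted p = 0.00141 in edgeR). Fgl1, another LAG-3 ligand gene, was called higher in edgeR (adjusted p = 0.00403), on 16, 25 and 21 reads in NOD.B10 and 5, 3 and 2 reads in BL/10. Its BL/10 reads lay near the floor of 3 reads, so it passed the filter through its NOD.B10 reads. The MHC class II genes H2-Aa and H2-Ab1, also listed for LAG-3, were not called (log2 fold changes 0.47 and 0.28, adjusted p = 0.18 and 0.312 in edgeR).

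The ligand genes of the other receptors gave no call in edgeR. For the TIGIT ligands Pvr and Nectin2, the log2 fold changes were -0.03 (adjusted p = 0.894) and 0.45 (adjusted p = 0.0961), and for Icosl 0.37 (adjusted p = 0.155). The ligand genes of GITR and OX40 were read rarely, Tnfsf18 from 13 to 27 times and Tnfsf4 from 9 to 21 times per library, with log2 fold changes of -0.21 and -0.13. Il2 was read 2 to 5 times in NOD.B10 and 4, 0 and 0 times in BL/10, too few for a test. Of the other chains of the interleukin-2 receptor, Il2rb had a log2 fold change of 0.02 (adjusted p = 0.927) and Il2rg of 0.48 (adjusted p = 0.0632). In the list of 8 genes of interleukin-2 receptor signaling, 1 rose, the kinase gene Jak3 (log2 fold change 0.58, adjusted p = 0.00736 in edgeR). The share of all tested genes that rose was 9.11%.

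Of 20 transcription factors that work with Foxp3 or in activated and resting T cells, 9 rose and 0 fell in edgeR. Their median log2 fold change was 0.42. The largest rises were those of Lef1 (log2 fold change 1.82, adjusted p = 0.00631) and Tcf7 (1.66, adjusted p = 0.00118), factors of naive and memory T cells. Lef1 had 33.1, 31.6 and 60.1 CPM in NOD.B10 and 13.6, 13.6 and 8.24 CPM in BL/10, with NOD.B10 replicate 3 apart from the others. Tox (0.79, adjusted p = 0.0415), which is linked to T cell exhaustion, Satb1 (0.76, adjusted p = 0.0108) and Nfatc2 (0.74, adjusted p = 0.00376) also rose in edgeR. Over these 6 lists together, 25 of 85 tested genes rose and 8 fell, against 9.11% and 8.22% of all tested genes. With the age term, 7 rose and 5 fell, against 433 (2.82%) and 510 of all 15330 genes. Without NOD.B10 replicate 1, 13 rose, against 680 of all 15629 genes tested.

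**Figure D5:**
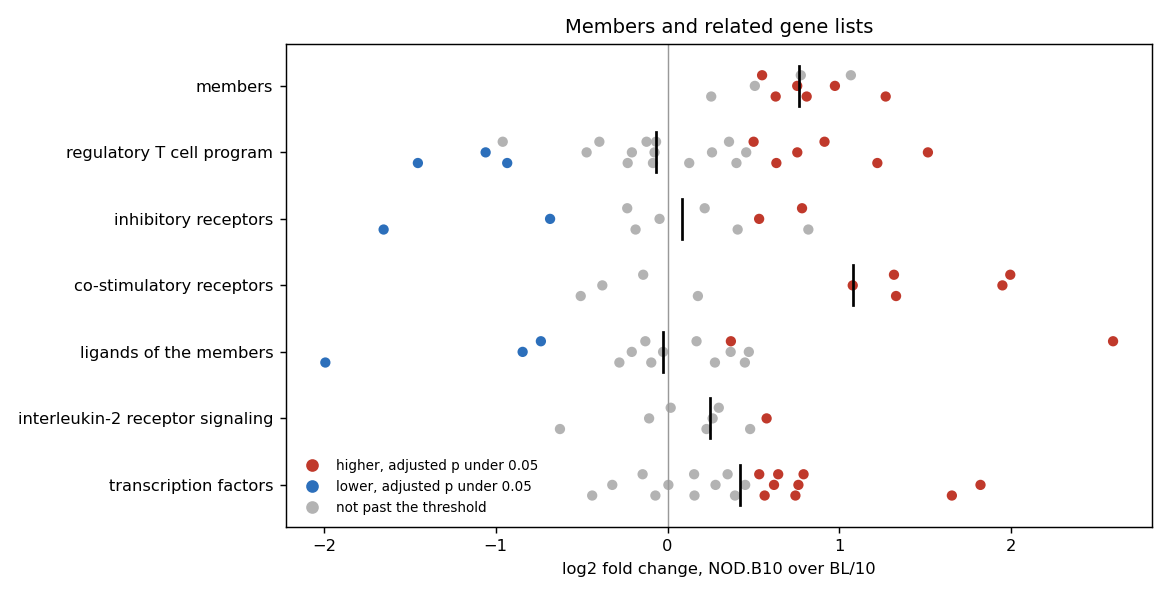
Log2 fold change, NOD.B10 over BL/10, of the 10 genes and of the tested genes of 6 related lists. Red points were called higher and blue points lower at an adjusted p of 0.05 in edgeR, grey points were not called, and black bars are medians. The 10 genes lie between 0.25 and 1.27, while the ligands and the regulatory T cell program spread to both sides of 0.

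Markers of the cells that share these genes were summed to set beside them. Of all tested genes, 9.11% were called higher and 8.22% lower. The 6 follicular helper T cell markers summed to 353 to 426 CPM in NOD.B10 and 245 to 352 CPM in BL/10, with 1 of 6 called higher. Most of this sum was Cxcr5 (means of 228 and 172 CPM) and Maf (110 and 87.2 CPM), neither called. Il21 (1.87 and 1.03 CPM) and Sostdc1 (2.17 and 1.88 CPM) added little and were not called. The sum therefore does not measure the number of these cells. The 5 cytotoxic T cell markers overlapped between the strains (105 to 153 and 105 to 134 CPM, with 1 of 5 called higher). The 8 macrophage markers (2938 to 3435 and 2559 to 2963 CPM, 1 of 8 called higher) and the 7 dendritic cell markers (241 to 286 and 254 to 283 CPM, 0 of 7 called) likewise overlapped, beside the rise of Havcr2. The 7 B cell markers (3507 to 4536 and 2678 to 4704 CPM) and 5 proliferation genes (1693 to 2711 and 1993 to 4125 CPM) had 0 called genes in edgeR, and the 5 plasma cell markers (3206 to 3702 and 2024 to 2574 CPM) had 4 called higher. The 5 red cell precursor markers were at 3701 to 7025 CPM in NOD.B10 and 4465 to 10310 CPM in BL/10, with 0 of 5 called. The part of these cells in the levels of the 10 genes was not tested.

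Lastly, the genes whose pattern over the 6 libraries was nearest to that of Foxp3 and Pdcd1 were listed, by the root mean square difference of log2 CPM centred on each gene's mean. For Foxp3 these were Cacna2d4, Clec2g, Gm38244, 2010016I18Rik and Tmprss11d (differences from 0.055 to 0.104). For Pdcd1 they were Tnfsf8, Scml4, Izumo1r, Ccdc112 and Arhgap27os3 (differences from 0.132 to 0.149), and Izumo1r is also in the regulatory T cell list above. Over 15330 genes and 6 libraries such likeness is a description of these libraries only.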

How the data were processed

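The spleens came from 3 NOD.B10 and 3 BL/10 females, and the authors deposited raw, unnormalized read counts for each gene. The table's header names exon counting with featureCounts version 1.5.1 and Ensembl annotation 84 of GRCm38, by default without strand and without reads on several genes. The submitters' processing notes name HISAT2 version 2.0.5, whereas the paper names Tophat2. The deposited table also gives gene length, another value without a sample. Gene symbols came from GENCODE M21 (the same build), with 47224 of 47729 identifiers matched.

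Libraries were assigned to strains by the description field, which shares its number and strain name with a column. BL/10 replicate 3 was matched by these alone, since the rest of its description differs from the column name. Counts were tested with edgeR 4.0.16 in R 4.3.3, and the alternatives also used DESeq2 1.42.0 and limma 3.58.1. Genes kept by filterByExpr (15330) were normalized by TMM and compared, NOD.B10 over BL/10, by the quasi-likelihood test, taking a Benjamini-Hochberg adjusted p under 0.05 over all tested genes as the threshold. Standard errors were computed from the fold change and F statistic. For the comparison with T cell transcripts, libraries were scaled to the geometric mean of Cd3d, Cd3e and Cd3g. On simulated counts with 200 changed genes, the fit found 199 and called 5 unchanged genes of 15155 run. The simulation gave every gene the same dispersion, and changes larger than those of most of the 10 genes. It thus checks the code and does not give the power in these data. Replicates of a strain differed by far more than counting error (chi-square divided by its degrees of freedom at or above 13.5).

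The 10 genes and all gene lists, written from general knowledge, were chosen with earlier results of these data known. Named from the lists were called genes with no overlap between strains, at most 5 a list by size of change, besides a fixed set of ligands, receptor chains and neighbors. Those nearest in pattern to Foxp3 and Pdcd1 were found on log2 of CPM plus 0.5. The Myd88-deficient libraries in the header were not analysed here.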

Additional observations from a re-analysis of the deposited data

How the results depend on the processing

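All 10 genes kept a positive log2 fold change under the 17 other settings tried with TMM or another library-wide scaling, and none was called lower. The number called higher, 6 with all libraries, was 0 with the age term and 0 with the 26-week libraries, in which the lone BL/10 library is assumed to vary like the NOD.B10 libraries. It was 3 at an adjusted p under 0.01, a threshold for which no share of all genes is given. With each library left out it was between 4 and 8, the most without BL/10 replicate 1. It was 7 with DESeq2, limma-voom, no filter beyond 1 count, or without pancreas, hemoglobin and immunoglobulin genes, and 5 with at least 10 counts in every library. Over all genes, 433 were higher and 510 lower with the age term, 458 and 543 with the 26-week libraries, and 882 higher with BL/10 replicate 3 as the sole BL/10 library, a setting chosen after seeing the data. With each library left out, the counts ran from 680 higher and 589 lower of 15629 tested genes without NOD.B10 replicate 1. They reached 1917 and 2190 of 15590 without BL/10 replicate 1. Of the related lists, 7 genes were higher with the age term and 7 with the 26-week libraries, 5 were lower with the age term, and with each library left out 13 to 36 were higher and 5 to 12 lower.

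Per Cd3 transcript, 6 of the 10 genes were called lower, against 91.7% of all tested genes. This became 1 with the summed T cell markers (83.6% of all genes) and 1 with Cd4 as the reference (83.8%). With each library left out it was between 4 and 6, for which no share of all genes is given. The values that turned sign were those of Foxp3 (0.34 with the summed T cell markers, 0.29 with Cd4, 0.11 without NOD.B10 replicate 1), Tnfrsf18 (0.044 with the summed T cell markers) and Pdcd1 (0.18 with the summed T cell markers, 0.16 with Cd4, 0.19 without BL/10 replicate 1 and 0.0472 with BL/10 replicate 3 alone). With each library left out, Foxp3 ran from -0.13 to 0.11 and Pdcd1 from -0.38 to 0.19. The other references moved all genes by about the same amount, and the cause of the other changes was not tested.

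The replicate numbers of the titles are shared by the strains, and the main fit took the libraries as unpaired. The deviations of same-numbered libraries correlated at 0.054, 0.251 and -0.076. Libraries of different numbers were not compared, so these values do not settle whether the numbers pair the libraries. With the replicate block, 6 of the 10 genes were called, losing Ikzf2 and gaining Pdcd1. Of all 15330 tested genes, 1388 were then higher and 1501 lower. Per Cd3 transcript, 4 of the 10 genes were lower with the block, for which no share of all genes is given. Il2 and Areg were too shallow to test, and Tigit had the fewest reads of the 10 genes, 38 to 91 a library. On the Cd3 scale, the 26-week libraries also called Tigit (-0.80) and Pdcd1 (-0.69) lower, with adjusted p = 0.0212 and 0.0179 in edgeR.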
